A study of Mus musculus with 15 samples.

Results

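The lysosome is the acidic compartment in which cells break down sugars, lipids, proteins and nucleic acids, and 45 of its genes were followed in mouse brain cortex while microglia were removed and allowed to return. The genes were listed by name, with no threshold on their values; they encode the soluble hydrolases other than cathepsins, their activator and transfer proteins, proteins of the lysosomal membrane, and genes of lysosome biogenesis, many of them mutated in human storage diseases. All 45 were found among the 53278 gene symbols of the count table, and 44 passed the filter on low counts. The filter left out Acp5, the tartrate-resistant acid phosphatase known from osteoclasts, which had 16, 17 and 18 reads in all in the 3 groups.

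The measurements came from bulk RNA sequencing of cortex, 1 library per mouse, from male C57BL/6J mice that the labels give as 10 to 20 weeks old. The control group (n = 5) stayed on control food. The depleted group (n = 5) was fed PLX3397, which blocks the kinase activity of CSF1R, over 9 days. The repopulation group (n = 5) had the same 9 days of PLX3397 followed by 9 days back on control food. Microglia need signals through CSF1R to survive, and border macrophages carry the same receptor. Levels are given as CPM, read counts relative to the size of the library, scaled by the trimmed mean of M values, and changes as log2 fold changes with the standard error (SE) and adjusted p of edgeR's quasi-likelihood test, called at an adjusted p under 0.05 over 18369 genes.

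Lysosomal hydrolases are made in the endoplasmic reticulum, tagged with mannose phosphate and delivered to an organelle acidified by the vacuolar proton pump. All cells have lysosomes, and microglia, the phagocytes of the brain, carry many, so that some lysosomal genes are shared by all brain cells and others belong mostly to myeloid cells. The transcription factor TFEB is known to raise many lysosomal genes through a short promoter element built on an E-box, and the myeloid factor PU.1 binds purine-rich sites.

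Promoter windows of 300 bases, from 250 before to 50 after the annotated start, were available for 39 of the 45 genes (RefSeq, build GRCm38.p6). They were searched on both strands for the E-box core CACGTG and for GAGGAA, a short core of PU.1 sites. CACGTG was in 8 of the 39 windows (Glb1, Gla, Gaa, Naglu, Arsa, Sgsh, Lamp1 and Mcoln1) and in 8.09% of all genes with a window. GAGGAA was in 18 of the 39 and in 31.3% of all genes. The 9 genes that were lower on PLX3397 all had a window, and 7 of them held GAGGAA, all but Hexa and Npc2, while none held CACGTG. Of the other 30 with a window, 11 held GAGGAA and 8 CACGTG. The longer core GAGGAAGT was in 3 windows, those of Gla, Gusb and Pld4, against 3.69% of all genes. These counts are descriptions, and the letters of both PU.1 cores were chosen after the data were seen.

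Shown here are the windows of the 3 genes with the largest loss on PLX3397, Pld4, Laptm5 and Cd68, and of Lamp1 and Mcoln1, which hold more than 1 copy of CACGTG and were not called on PLX3397. Each is written on the strand of its gene with the motif in capitals, GAGGAA or its reverse complement TTCCTC in the first 3 and CACGTG in the other two.
Pld4, chr12:112760405-112760704, plus strand: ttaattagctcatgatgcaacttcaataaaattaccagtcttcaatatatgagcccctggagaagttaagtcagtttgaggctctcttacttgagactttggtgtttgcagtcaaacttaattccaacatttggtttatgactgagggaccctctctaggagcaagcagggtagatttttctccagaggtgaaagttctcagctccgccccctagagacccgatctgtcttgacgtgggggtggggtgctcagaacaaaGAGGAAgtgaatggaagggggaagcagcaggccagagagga
Laptm5, chr4:130913066-130913365, plus strand: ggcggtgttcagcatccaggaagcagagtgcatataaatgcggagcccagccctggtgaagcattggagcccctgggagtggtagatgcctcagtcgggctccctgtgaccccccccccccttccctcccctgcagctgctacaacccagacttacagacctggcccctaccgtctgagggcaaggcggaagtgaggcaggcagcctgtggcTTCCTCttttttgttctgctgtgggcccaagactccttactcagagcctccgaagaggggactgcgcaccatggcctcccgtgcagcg
Cd68, chr11:69666121-69666420, minus strand: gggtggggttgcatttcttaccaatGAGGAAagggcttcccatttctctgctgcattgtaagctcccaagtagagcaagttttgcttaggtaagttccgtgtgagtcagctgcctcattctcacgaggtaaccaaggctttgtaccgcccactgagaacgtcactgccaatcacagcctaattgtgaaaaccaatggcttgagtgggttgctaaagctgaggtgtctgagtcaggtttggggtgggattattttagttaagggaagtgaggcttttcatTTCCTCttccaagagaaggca
Lamp1, chr8:13158911-13159210, plus strand: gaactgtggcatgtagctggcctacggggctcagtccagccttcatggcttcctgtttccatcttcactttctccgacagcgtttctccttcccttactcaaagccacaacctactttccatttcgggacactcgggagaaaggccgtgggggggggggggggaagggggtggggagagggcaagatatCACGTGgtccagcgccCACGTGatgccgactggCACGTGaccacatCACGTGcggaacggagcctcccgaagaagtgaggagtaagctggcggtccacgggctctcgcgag
Mcoln1, chr8:3500269-3500568, plus strand: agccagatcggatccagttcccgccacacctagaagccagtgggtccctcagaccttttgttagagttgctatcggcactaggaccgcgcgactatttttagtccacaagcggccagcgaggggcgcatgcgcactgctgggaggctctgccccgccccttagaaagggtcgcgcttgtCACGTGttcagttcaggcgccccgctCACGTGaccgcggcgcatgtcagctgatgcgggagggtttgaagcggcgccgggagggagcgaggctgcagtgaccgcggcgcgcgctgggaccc
In Lamp1 the 4 copies begin 61, 45, 28 and 15 bases before the start, and in Mcoln1 the 2 copies begin 71 and 45 bases before it. GAGGAA begins 9 bases after the start in Pld4 and 38 before it in Laptm5. In Cd68 its copies begin 225 bases before and 29 after the start. The GENCODE M21 spans of Laptm5 and Mcoln1 begin at 130913125 and 3500457, before the starts used here. The Laptm5 match and the Mcoln1 copy at 45 bases lie within those spans. A match of letters does not show that a factor binds there.

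The microglial markers set the scale for the lysosomal genes. Csf1r, which encodes the inhibited receptor, kept 0.262% of its control level on PLX3397 (95% interval 0.226 to 0.303%), Cx3cr1 kept 0.229%, P2ry12 2.98% and Tmem119 5.86%. All 12 microglial markers were lower on PLX3397 and higher after return, and their summed level lay at 329 to 363 CPM in the control mice, fell to 14.3 to 18.2 in the depleted ones and was back at 355 to 400 in repopulated cortex. Of 7 border macrophage markers 5 could be tested and all 5 were lower on PLX3397, with sums of 29.8 to 39.2 CPM in control and 4.53 to 5.70 in depleted mice, where Pf4 and Ms4a7 had no read in any library. None of 12 blood leukocyte markers reached the filter, and their sum was 0.449 to 1.37 CPM over all libraries. Other cell types moved too: 8 of 10 myelin genes were higher on PLX3397 and all 10 were lower after return than on it, 7 of 8 oligodendrocyte precursor markers and 4 of 8 endothelial markers were lower on it. Choroid plexus markers summed to 9.85 to 26.0 CPM in control mice, 15.2 to 218 in depleted mice and 9.57 to 559 in repopulated mice. The part of these markers in the results below was not tested, and in bulk cortex fewer cells of a type cannot be told apart from less RNA per cell.

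On PLX3397 for 9 days, 9 of the 44 tested lysosomal genes were lower than in control, 2 were higher and 33 were not called. Over all 18369 genes, 8.35% were called lower and 8.19% higher. The median log2 fold change was -0.00646 over the lysosomal genes and -0.00186 over all genes. The losses fell into separate bands: Pld4 and Laptm5 kept under 2% of their control level, Cd68 kept 32.9%, and the other 6 genes, Hexa, Grn, Gusb, Npc2, Man2b1 and Gm2a, kept 76.9 to 86.4%. The 33 genes not called stood at 91.1 to 111% of control, and their 95% intervals lay between 82.3 and 121%. Correcting for exon length and GC content moved the calls over all genes to 4.63% lower and 9.67% higher, and those of the lysosomal genes to 9 lower and 8 higher, the latter being Tmem106b, Gnptab, Gaa, Arsa, Arsb, Psap, Pld3 and Lamp1.

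**Figure D1:**
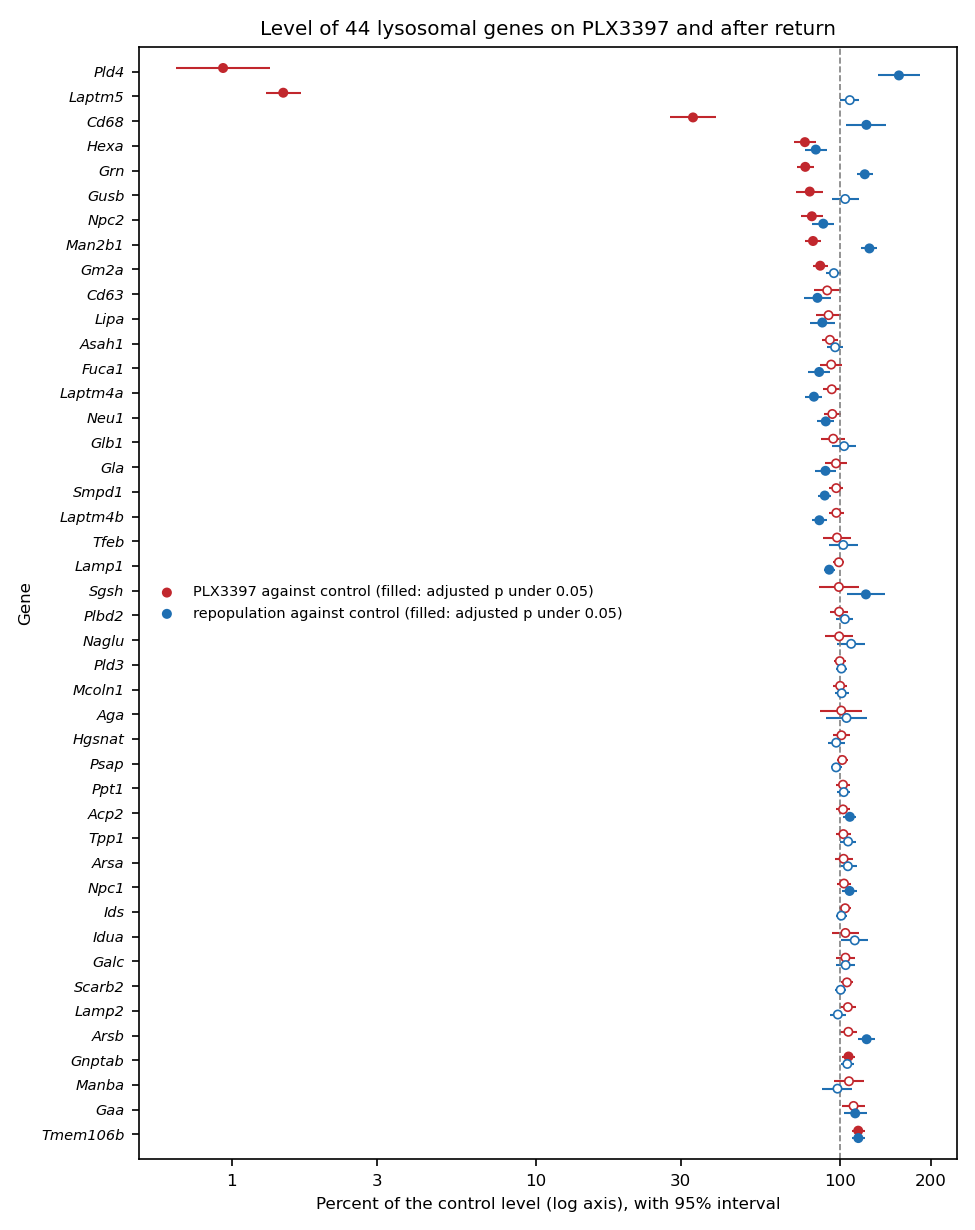
Level of each of the 44 tested lysosomal genes on PLX3397 (red) and after return (blue) as a percent of control on a log axis, with 95% intervals from the edgeR fit. Filled points passed an adjusted p of 0.05. Pld4, Laptm5 and Cd68 stand apart on the left on PLX3397, and the other called genes lie between 76.9 and 115% of control.

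Among the nucleases and phosphatases, Pld4 encodes a membrane-bound exonuclease of the endolysosome that degrades single-stranded nucleic acids sensed by Toll-like receptors. The gene lies at chr12:112760655-112768990 on the plus strand (GRCm38, the build of mm10; GENCODE M21). Its levels were 7.67, 6.63, 6.44, 6.90 and 5.39 CPM in the 5 control mice, 0.0356, 0.141, 0, 0.0341 and 0.0860 in the depleted mice and 8.99, 11.2, 10.5, 9.48 and 11.96 in the repopulated mice. The 3 groups did not overlap, and every repopulated mouse was above every control mouse. Pld4 fell by 6.74 on the log2 scale (SE 0.248, adjusted p = 3.46e-17), which left 0.937% of control (95% interval 0.658 to 1.34%). This rests on 8 reads in all in the depleted group, with 0 in 1 library, against 1073 in control. After return it stood at 157% of control (log2 fold change 0.65, adjusted p = 9.04e-05).

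Pld3 encodes the other endolysosomal nuclease of this family and was the second most abundant gene of the set per length. It was at 211 CPM per kb of exon in control against 1.91 for Pld4. Pld3 had 618 ± 23.6 CPM (SD, n = 5) in control, 619 ± 15.2 on PLX3397 and 627 ± 5.31 after return. It kept 100.2% of its control level on PLX3397, with an interval of 95.9 to 104.7%. With length and GC correction Pld3 was called higher, by 0.15 on PLX3397 (adjusted p = 0.00134) and 0.09 after return (adjusted p = 0.0293) on the log2 scale. Within a library, the log2 ratio of Pld4 to Pld3 counts differed from control by -6.77 on PLX3397 and by 0.64 after return (exact two-sided permutation test of 5 against 5 mice, adjusted p = 0.0179 for both). Across the 15 pairs of related genes and the 3 comparisons, 0.0179 is the lowest adjusted p reached, since a raw p cannot fall below 0.00794. Acp2, a lysosomal acid phosphatase, was not called on PLX3397 and was at 108% of control after return (adjusted p = 0.0166), a call lost after correction for length and GC content (adjusted p = 0.177). Acp2 shares 12.6% of its exonic bases with Ddb2 on the opposite strand. Acp5 was between 0 and 0.211 CPM in all 15 libraries.

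In the membrane proteins, Laptm5 carried the largest loss in CPM. It encodes a lysosomal transmembrane protein of blood and immune cells and lies at chr4:130913125-130936141 on the plus strand. The 5 control mice had 28.7, 28.2, 29.8, 27.5 and 26.99 CPM, the depleted mice 0.391, 0.423, 0.418, 0.512 and 0.301 and the repopulated mice 29.7, 29.9, 30.4, 29.3 and 33.2. Depleted mice did not overlap with either other group, whereas control and repopulated mice overlapped. Laptm5 kept 1.48% of control on PLX3397 (95% interval 1.29 to 1.69%; log2 fold change -6.08, SE 0.093, adjusted p = 1.04e-25). After return it was at 108% of control and not called (log2 fold change 0.11, adjusted p = 0.104), and called higher after correction for length and GC content (log2 fold change 0.15, adjusted p = 0.031).

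Laptm4a and Laptm4b encode broadly made proteins of the same family and were at 65.3 and 34.5 CPM per kb in control against 7.45 for Laptm5. Neither was called on PLX3397. Both were lower in repopulated than in control mice: Laptm4a had 125, 114, 118, 112 and 109.6 CPM in control, 107, 122, 103, 113 and 101 on PLX3397 and 93.2, 97.7, 96.1, 93.5 and 96.9 after return. All 5 repopulated mice lay below all mice of both other groups. It stood at 82.3% of control after return (adjusted p = 4.5e-05) and Laptm4b at 85.8% (adjusted p = 0.00016), and relative to PLX3397 they were at 87.4 and 87.9% (adjusted p = 0.0035 and 0.00186). The ratio of Laptm5 to Laptm4a counts was 0.228 to 0.252 in control mice, 0.0032 to 0.00466 in depleted mice and 0.306 to 0.343 in repopulated mice, so that the groups did not overlap (adjusted p = 0.0179 in all 3 comparisons, exact permutation test). The ratio of Laptm4b to Laptm4a differed by 0.05 on the log2 scale on PLX3397 and by 0.06 after return, and neither difference passed the exact permutation test (adjusted p = 0.42 and 0.26).

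Cd68 encodes macrosialin, a heavily glycosylated relative of the LAMP proteins used as a marker of phagocytes, and lies at chr11:69664213-69666153 on the minus strand. Control mice had 6.10, 7.44, 8.22, 7.84 and 6.29 CPM, depleted mice 2.13, 2.89, 2.44, 1.91 and 2.41 and repopulated mice 9.09, 8.13, 7.97, 8.02 and 10.6. Every depleted mouse was below every other mouse. Cd68 kept 32.9% of control on PLX3397 (95% interval 27.6 to 39.3%; log2 fold change -1.60, SE 0.123, adjusted p = 2.09e-10), an interval that lies above those of Pld4 and Laptm5. After return it was at 123% of control (adjusted p = 0.0391) with overlapping groups, a call lost without control mouse 1, control mouse 5, repopulated mouse 1 or repopulated mouse 5 (adjusted p up to 0.15). Relative to Lamp1 in the same library, the log2 level of Cd68 differed from control by -1.60 on PLX3397 and by 0.40 after return (adjusted p = 0.0179 for both, exact permutation test).

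Lamp1 and Lamp2 encode the main glycoproteins that coat the inner face of the lysosomal membrane. Lamp1 was at 265 to 279.7 CPM in control mice, 258 to 277 on PLX3397 and 246 to 257 after return. It kept 99.4% of control on PLX3397 (95% interval 95.3 to 103.8%) and stood at 92.5% after return (adjusted p = 0.00534), where no repopulated mouse reached a control mouse. With length and GC correction it was 0.08 higher on PLX3397 (adjusted p = 0.0478), a turned sign, and no longer called after return (adjusted p = 0.0588). Lamp2 was not called in any comparison. With length and GC correction Lamp2 was called lower after return, both against control (adjusted p = 0.013) and against PLX3397 (adjusted p = 0.00814). Cd63, a tetraspanin of late endosomes, was at 84.6% of control after return (adjusted p = 0.0121) with overlapping groups, and at an adjusted p of 0.0534 without control mouse 3. Scarb2, the receptor that carries glucocerebrosidase to the lysosome, and Mcoln1, a cation channel of its membrane, were not called in any comparison. With the same correction Scarb2 was called lower after return than on PLX3397 (adjusted p = 0.00106).

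Tmem106b moved the other way. It encodes a lysosomal membrane glycoprotein that in humans modifies the risk of frontotemporal dementia in carriers of progranulin mutations. Control mice had 197, 181, 183, 187 and 185 CPM, depleted mice 208, 210.1, 208, 221 and 228 and repopulated mice 221, 219.9, 213, 210.1 and 214. All control mice lay below all mice of both other groups, which overlapped with each other. Tmem106b was at 115% of control on PLX3397 (95% interval 110 to 121%, adjusted p = 0.000112) and at 115% after return (adjusted p = 5.75e-05), with log2 fold changes of 0.20 and 0.21. Corrected for length and GC content, they were 0.15 and 0.10 and still called. The myelin markers summed to 5277 to 5554 CPM in control mice and to 5643 to 6857 in depleted mice, and after return to 4769 to 5730. Gnptab, which encodes subunits of the enzyme that begins the mannose phosphate tag, was also higher on PLX3397, at 107% of control (adjusted p = 0.0433). Its groups overlapped, and the call was lost in 17 of 23 alternative settings (adjusted p up to 0.163), 13 of which leave out a single mouse.

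**Figure D2:**
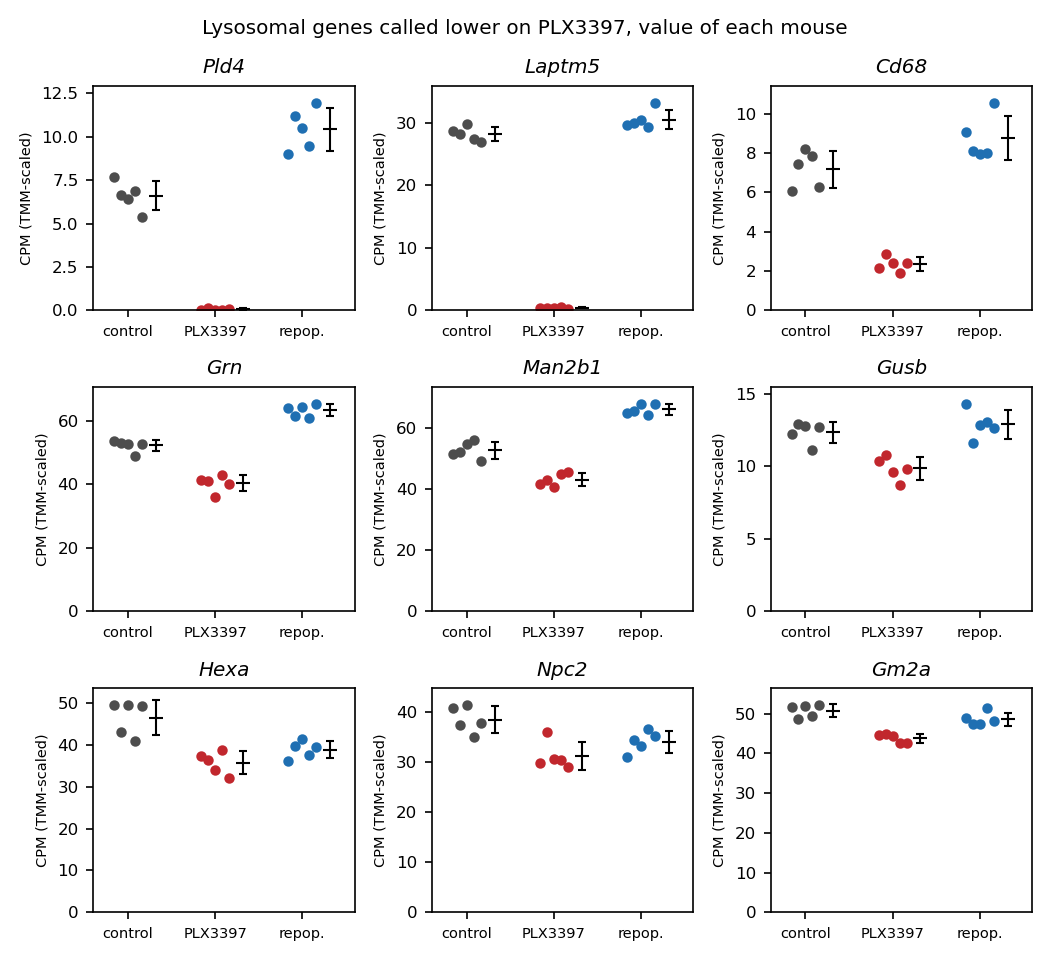
Scaled CPM of each mouse (points) for the 9 lysosomal genes called lower on PLX3397, in control, PLX3397 and repopulation (repop.) mice; the dash and bar to the right of each group are the mean and SD of 5 mice. After return Pld4, Grn and Man2b1 lie above all control mice, while Hexa lies at 36.0 to 41.3 CPM and Npc2 at 31.0 to 36.7 CPM, below their control means of 46.4 and 38.5.

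Grn encodes progranulin, a secreted and lysosomal protein that is cut into granulins, and lies at chr11:102430315-102437048 on the plus strand. It was at 53.6, 53.1, 52.8, 49.01 and 52.6 CPM in control mice, 41.4, 40.9, 36.1, 42.9 and 40.1 on PLX3397 and 63.8, 61.6, 64.4, 60.9 and 65.3 after return. The 3 groups did not overlap, with depleted mice lowest and repopulated mice highest. Grn kept 77.1% of control on PLX3397 (95% interval 72.3 to 82.2%; log2 fold change -0.37, SE 0.0447, adjusted p = 8.85e-07) and stood at 121% after return (95% interval 114 to 129%, adjusted p = 4.12e-05). Between depleted and repopulated mice it rose by 0.65 (adjusted p = 1.59e-11). Psap encodes prosaposin, the precursor of the saposins and a binding partner of progranulin, and was the most abundant gene of the set at 546 CPM per kb in control. It kept 102.1% of control on PLX3397 (95% interval 98.0 to 106.4%), and with length and GC correction it was called higher, by 0.15 on the log2 scale (adjusted p = 0.000157). The log2 ratio of Grn to Psap differed from control by -0.41 on PLX3397 and by 0.31 after return (adjusted p = 0.0179 for both, exact permutation test). Tfeb, the transcription factor named above, was not called in any comparison, at 7.61 ± 0.322 CPM in control and 7.46 ± 0.539 on PLX3397 (SD, n = 5).

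Of the 11 glycosidases, enzymes that remove sugars from glycoproteins and glycolipids, 3 (27.3%) were lower on PLX3397 and none was higher, beside 8.35 and 8.19% over all genes. Man2b1, the lysosomal alpha-mannosidase, lies at chr8:85083270-85098282 on the plus strand. Its levels were 51.6, 52.1, 54.7, 56.2 and 49.1 CPM in control, 41.6, 42.8, 40.8, 44.8 and 45.6 on PLX3397 and 64.8, 65.7, 67.96, 64.2 and 67.7 after return. As for Grn, no 2 groups overlapped and the repopulated mice were highest. Man2b1 kept 81.8% of control on PLX3397 (95% interval 76.9 to 87.0%; log2 fold change -0.29, SE 0.0435, adjusted p = 3.01e-05) and was at 125% after return (95% interval 118 to 133%, adjusted p = 5.44e-06). Manba, the beta-mannosidase, was not called in any comparison, and the log2 ratio of Manba to Man2b1 differed from control by 0.40 on PLX3397 and by -0.34 after return (adjusted p = 0.0179 and 0.0429, exact permutation test).

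Hexa encodes a subunit of beta-hexosaminidase, which degrades gangliosides, and lies at chr9:59539540-59565109 on the plus strand. Control mice had 49.5, 42.9, 49.3, 40.97 and 49.3 CPM, depleted mice 37.4, 36.3, 33.97, 38.8 and 32.02 and repopulated mice 35.97, 39.7, 41.3, 37.5 and 39.5. No depleted mouse reached a control mouse, and repopulated mice overlapped with both groups. Hexa kept 76.9% of control on PLX3397 (95% interval 70.6 to 83.7%; log2 fold change -0.38, SE 0.0595, adjusted p = 6.03e-05). After return it was still at 83.5% of control (95% interval 76.8 to 90.9%, adjusted p = 0.00156), and the rise from PLX3397 of 0.12 was not called (adjusted p = 0.195). Hexa shares 12.8% of its exonic bases with Tmem202 on the opposite strand, and the use of strand in counting is not given in the sources used here.

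Gusb, the beta-glucuronidase, kept 79.8% of control on PLX3397 (adjusted p = 0.00269), with 11.1 to 12.9 CPM in control mice and 8.73 to 10.8 on PLX3397. After return its mice had 11.6 to 14.3 CPM, overlapping with control and above all depleted mice (adjusted p = 0.000485 against PLX3397). Not called on PLX3397 but called after return against control were Gaa, the acid alpha-glucosidase, at 113% (adjusted p = 0.0376), Fuca1, the alpha-fucosidase, at 85.7% (adjusted p = 0.00466), the sialidase Neu1 at 90.1% (adjusted p = 0.0106) and the alpha-galactosidase Gla at 89.9% (adjusted p = 0.0451). The calls of Fuca1 and Neu1 held in all 23 alternative settings, and those of Gaa and Gla were lost in 9 and 12 of them (adjusted p up to 0.0955 and 0.135). For Gaa these included leaving out control mouse 2, 4 or 5, depleted mouse 1 or repopulated mouse 2, 3, 4 or 5, and for Gla control mouse 2 or 5, depleted mouse 4 or repopulated mouse 2, 3, 4 or 5. On PLX3397 Gaa had stood at 111% of control (adjusted p = 0.0897), and it was called higher there with length and GC correction (adjusted p = 0.00219). None of Gaa, Fuca1, Neu1 and Gla was called between PLX3397 and return. With that correction Fuca1 and Neu1 were called lower after return than on PLX3397 (adjusted p = 0.0117 and 0.0128). Idua, Naglu and Glb1 were not called in any comparison. With length and GC correction Naglu was called higher after return than in control (adjusted p = 0.0325).

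In the group of lipid enzymes, activators and sterol carriers, 2 of 10 genes (20.0%) were lower on PLX3397, beside 8.35% over all genes, and none was higher. Npc2 encodes the soluble protein that hands cholesterol to the membrane protein Npc1. It was at 40.7, 37.4, 41.5, 34.97 and 37.9 CPM in control mice, 29.9, 36.00, 30.7, 30.5 and 29.1 on PLX3397 and 30.95, 34.4, 33.2, 36.7 and 35.3 after return. Depleted mouse 2, at 36.0 CPM, lay above the lowest control mouse, and repopulated mice overlapped with both groups. Npc2 kept 81.1% of control on PLX3397 (95% interval 74.5 to 88.2%, adjusted p = 0.000718) and was at 88.4% after return (adjusted p = 0.0231), a call lost without control mouse 1, control mouse 3, repopulated mouse 1 or repopulated mouse 3 (adjusted p up to 0.0789). Npc1 was not called on PLX3397 and was at 108% after return (adjusted p = 0.0314), with the sign turned to -0.03 after correction for length and GC content and the call lost without control mouse 1, 2 or 5 or repopulated mouse 4 or 5 (adjusted p up to 0.0895). The log2 ratio of Npc2 to Npc1 differed from control by -0.35 on PLX3397 and by -0.28 after return (adjusted p = 0.0325 and 0.0179, exact permutation test).

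Gm2a encodes the activator that presents gangliosides to beta-hexosaminidase. It had 51.7, 48.6, 51.9, 49.4 and 52.3 CPM in control, 44.7, 44.9, 44.3, 42.7 and 42.6 on PLX3397 and 48.8, 47.5, 47.4, 51.4 and 48.1 after return. No depleted mouse overlapped with the other groups. It kept 86.4% of control on PLX3397 (95% interval 81.6 to 91.4%, adjusted p = 0.000484) and was not called against control after return. Smpd1, the acid sphingomyelinase, was at 101 to 108 CPM in control and 89.8 to 97.8 after return, which was 89.4% of control (adjusted p = 0.00118). Lipa, the acid lipase of lysosomes, was at 87.7% after return (adjusted p = 0.0372) with overlapping groups, a call lost without control mouse 1 or 5 or repopulated mouse 1, 3 or 5 (adjusted p up to 0.167). Asah1, Galc, Ppt1 and Plbd2 were not called in any comparison.

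None of the 5 sulfatases and heparan sulfate enzymes was called on PLX3397. Arsb, the arylsulfatase that acts on dermatan and chondroitin sulfate, had 61.01, 71.3, 64.5, 70.1 and 62.00 CPM in control, 71.5, 67.04, 71.6, 67.5 and 73.8 on PLX3397 and 84.6, 80.9, 77.9, 80.7 and 79.2 after return. The repopulated mice lay above all others. It stood at 123% of control after return (95% interval 115 to 131%, adjusted p = 2.25e-05), and its ratio to Arsa, which desulfates sulfatide, was 0.21 higher on the log2 scale (adjusted p = 0.0325, exact permutation test). Arsb shares 39.9% and Arsa 18.8% of exonic bases with noncoding transcripts of the opposite strand, and Sgsh 21.6% with Card14. Sgsh, a sulfohydrolase of heparan sulfate, was at 122% after return (adjusted p = 0.0352) with overlapping groups, and this call was lost without control mouse 1 or 5 or repopulated mouse 3 or 5 (adjusted p up to 0.112). Ids and Hgsnat, and the peptide and amide hydrolases Tpp1 and Aga, were not called in any comparison. With length and GC correction Ids was called lower after return than on PLX3397 (adjusted p = 0.0348). With the same correction Arsa and Arsb were called higher on PLX3397 (adjusted p = 0.0141 and 0.038). Arsa was then also higher after return than in control (adjusted p = 0.0407). The rises of Arsb and Sgsh from PLX3397 to return were not called with it (adjusted p = 0.0624 and 0.176).

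**Figure D3:**
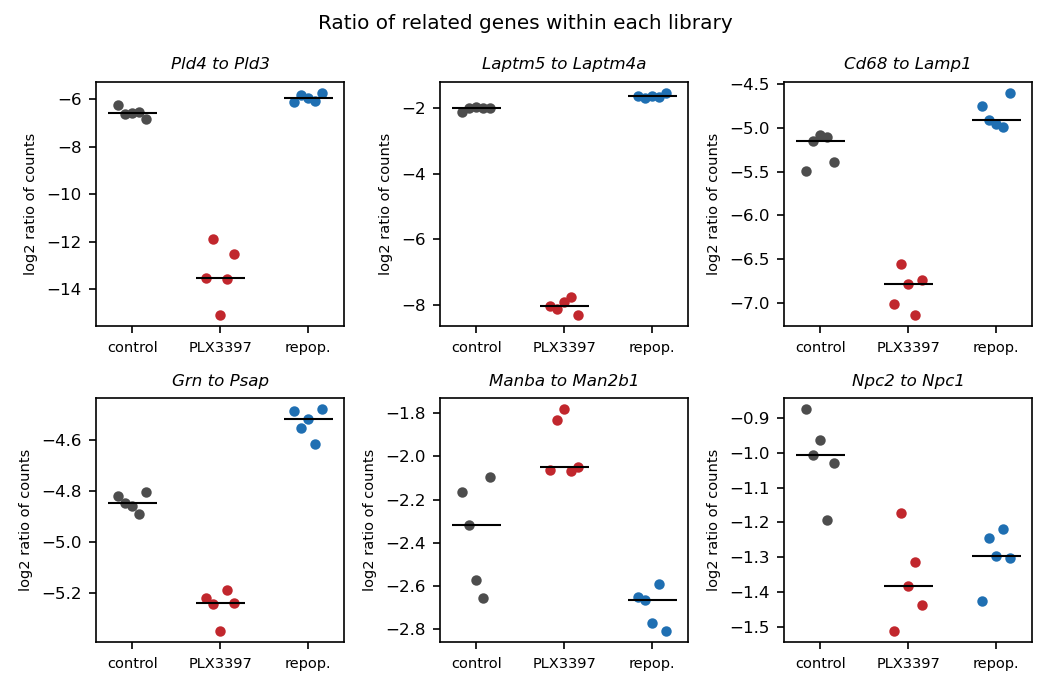
Log2 ratio of the counts of 2 related lysosomal genes within each library (points; 0.5 added to each count), for 6 of the 15 pairs tested, with the group median as a line. Pld4, Laptm5, Cd68 and Grn were lower relative to their partners on PLX3397 and higher after return than in control. Npc2 stayed lower relative to Npc1, and the ratio of Manba to Man2b1 was higher on PLX3397 and lower after return. Laptm5 itself was not called after return against control, where Laptm4a was at 82.3% and Lamp1 at 92.5%. The pairs were chosen with earlier results of these data known.

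Between depleted and repopulated mice, 9 of the 44 genes were higher and 4 lower, beside 7.61% higher and 8.98% lower over all genes. Those higher were Pld4, Laptm5, Cd68, Grn, Man2b1, Gusb, Gm2a, Arsb and Sgsh, and those lower were Laptm4a, Laptm4b, Smpd1 and Lamp1. This contrast uses the depleted mice of the first one, so its values are not independent of the loss. Pld4 rose by 7.39 and Laptm5 by 6.19 on the log2 scale, Cd68 by 1.90 and Man2b1 by 0.62 (adjusted p = 9.68e-19, 5.83e-26, 4.16e-12 and 2.78e-11). With length and GC correction 6 lysosomal genes were higher and 12 lower, beside 4.25% higher and 19.0% lower over all genes.

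In repopulated against control mice, 10 of the 44 were higher and 11 lower, beside 13.9% higher and 15.2% lower over all genes. Without control mouse 5, only 6 were higher, beside 2311 of all 18369 genes, against 2548 with all mice. The groups did not overlap for 15 of the 44, and for 32 of the 98 tested genes of the other lysosomal lists described below. The share over all genes is not given here, so whether 15 is many cannot be told. Apart from Pld4, all log2 fold changes after return lay between -0.28 and 0.33. With length and GC correction 12 were higher and 10 lower, beside 7.75 and 16.1% over all genes. Both contrasts against control use the same 5 control mice, so the values of a gene in them share an error. Beside these values, Csf1r was at 124% of control after return (adjusted p = 5.1e-05), while Cx3cr1 at 107%, P2ry12 at 109.9% and Tmem119 at 102% were not called, and the summed microglial markers overlapped with control.

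The genes lost on PLX3397 did not stand in one proportion after return. The ratio of Hexa to Grn counts was 0.808 to 0.938 in control mice, 0.798 to 0.941 in depleted mice and 0.564 to 0.644 in repopulated mice. That of Npc2 to Man2b1 was 0.623 to 0.790, 0.639 to 0.841 and 0.478 to 0.571. In both ratios control and depleted mice overlapped and all repopulated mice lay below them; these 2 ratios were chosen after their values were seen and were not tested.

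**Figure D4:**
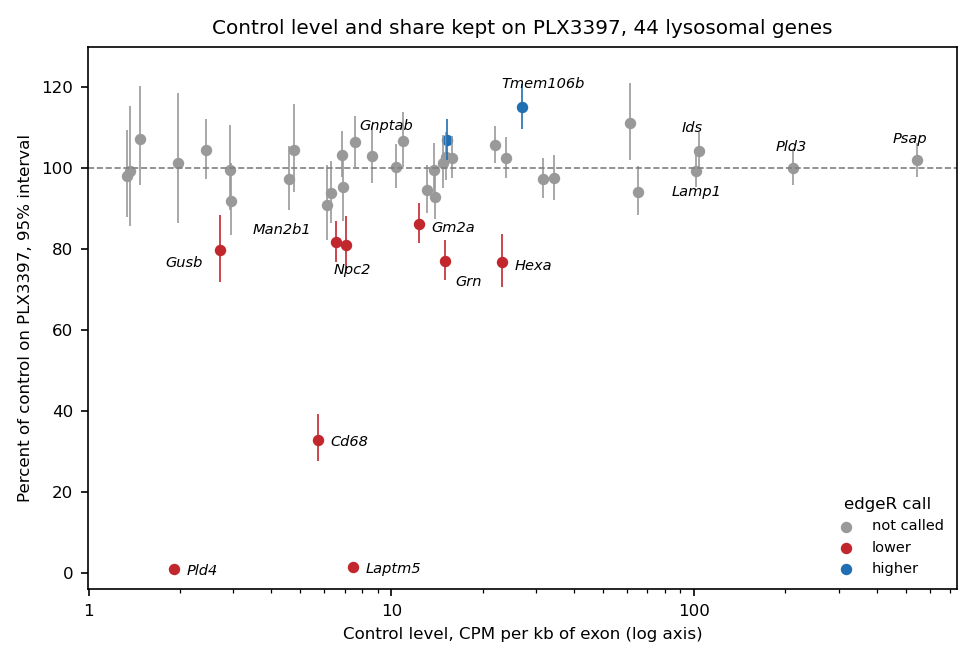
Control level of each tested lysosomal gene in CPM per kb of exon (log axis) against the percent of control kept on PLX3397, with 95% intervals. Psap, Pld3, Ids and Lamp1, the 4 highest at 101 to 546 CPM per kb, lie near 100% without length and GC correction. The 9 genes called lower (red) lie between 1.91 and 23.2 CPM per kb. Many genes not called lie in that range too, among them Npc1 at 6.86, Neu1 at 13.1 and Scarb2 at 22.0 CPM per kb.

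Other lysosomal genes were counted in 5 lists with 103 genes outside the 45, of which 98 could be tested. On PLX3397, 14 of the 98 (14.3%) were lower and 13 (13.3%) higher, beside 8.35 and 8.19% over all genes. With length and GC correction 7 were lower and 19 higher, beside 4.63 and 9.67%. The 24 tested further hydrolases had 5 lower and 1 higher, and among those lower the asparaginyl protease Lgmn kept 78.2% (adjusted p = 1.18e-06). Of 24 further membrane proteins 5 were lower and 3 higher. The lowest was Slc11a1, a phagosomal metal transporter, which kept 3.54% of control (95% interval 2.47 to 5.09%) and was at 186% after return (adjusted p = 2.46e-05). Slc15a3, a peptide and histidine transporter, kept 4.83% (95% interval 2.82 to 8.26%). In the depleted group these values rest on 10 reads of Slc11a1 and 9 of Slc15a3 in all.

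The vacuolar proton pump, which acidifies the lysosome, had most of its calls after return. Of 18 tested subunits, 2 (11.1%) were lower and 3 (16.7%) higher on PLX3397, beside 8.35 and 8.19% over all genes. After return 13 (72.2%) were lower than in control and none was higher, beside 15.2% lower over all genes. The median log2 fold change of the subunits was -0.16 against 0.01 for all genes. Against PLX3397, 14 (77.8%) were lower, beside 8.98% over all genes. Atp6v0d1, a subunit of the membrane part of the pump, had 185 to 198 CPM in control mice and 154 to 160 after return, 81.8% of control (adjusted p = 1.2e-06), with no overlap. With length and GC correction 14 subunits were lower after return than in control and 15 lower than on PLX3397, beside 16.1 and 19.0% over all genes. The 18 tested genes of sorting and transcription control had 4 (22.2%) higher on PLX3397 and none lower, beside 8.19 and 8.35% over all genes. Among those higher were Ap3b1 at 114% (adjusted p = 0.00272) and Igf2r, a receptor for the mannose phosphate tag, at 109% (adjusted p = 0.0286). With length and GC correction 6 were higher, beside 9.67% over all genes. The 14 genes of nutrient sensing at the lysosome had 2 higher and 2 lower on PLX3397 (14.3% each), beside 8.19 and 8.35% over all genes. After return 5 (35.7%) were lower than in control and 2 (14.3%) higher, beside 15.2 and 13.9% over all genes. The kinase gene Mtor was then at 120% of control (adjusted p = 4.08e-06) and Rheb at 82.5% (adjusted p = 1.54e-05).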

How the data were processed

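Cortex RNA of 15 mice in 3 groups of 5 was measured, 1 library per mouse. The authors deposited a table of raw read counts per gene symbol. The mouse genome mm10 and the tools STAR, FastQC, MultiQC, DESeq and DESeq2 are named in the submitters' processing notes without roles; which tool counted the reads, with which annotation and strand setting, is not given in the sources used here. Totals ran from 23413551 to 48617851 counts, so 1 CPM rests on 23.4 to 48.6 reads and low genes are the least precise. No 2 libraries were identical, and libraries of a group differed by more than sampling noise.

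Tests on the counts used edgeR 4.0.16 under R 4.3.3 (TMM scaling, filterByExpr, robust quasi-likelihood F test, all 15 libraries in 1 fit without covariates, Benjamini-Hochberg adjustment over 18369 genes). The percent of control is 2 to the power of the log2 fold change, with a 95% interval from its SE. Ratios of 15 gene pairs used counts plus 0.5 and an exact permutation test, adjusted over 45 tests. CPM per kb used exon lengths of GENCODE M21, matched by symbol. The fit was tested on simulated counts. Alternatives were RLE size factors, library totals, no filter, DESeq2 1.42.0, fits of only the groups compared, a replicate block, length and GC offsets (mgcv 1.9.3), their combination, and leaving out each library.

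The 45 genes, lists, markers and pairs were chosen with earlier results of these data known. All 45 genes are named by role; from each other list no more than 3 genes per comparison, taken in order of adjusted p, could be named, and of the microglial markers Csf1r, Cx3cr1, P2ry12 and Tmem119.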

Additional observations from a re-analysis of the deposited data

Results flagged for a closer look

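In the 132 groups of 5 mice formed by the 44 tested genes, 5 held a mouse set apart from the others, where its gap to the nearest mouse was over 0.71 of the whole range of the group. Chance gives about 1 in 20 such groups. Npc2 was at 36.0 CPM in depleted mouse 2 and at 29.1 to 30.7 CPM in the other depleted mice. Laptm5 was at 33.2 CPM in repopulated mouse 5 and at 29.3 to 30.4 CPM in the others. Grn was at 49.01 CPM in control mouse 4 and at 52.6 to 53.6 CPM in the other controls. Lipa was at 23.1 CPM in control mouse 1 and at 18.7 to 19.9 CPM in the others. Hgsnat was at 45.6 CPM in repopulated mouse 2 and at 48.2 to 48.5 CPM in the others. The calls of Npc2, Laptm5 and Grn on PLX3397 held without each library in turn.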

How the results depend on the processing

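On PLX3397, 10 of the 11 calls among the lysosomal genes held under all 23 alternatives, the exception being Gnptab. Between PLX3397 and return 8 of 13 held, and between control and return 11 of 21. Genes lost at least once in the second were Arsb, Sgsh, Smpd1, Gm2a and Lamp1, and in the third Gla, Gaa, Sgsh, Lipa, Npc1, Npc2, Acp2, Lamp1, Cd63 and Cd68. Of the genes not called, 9 of 33, 9 of 31 and 8 of 23 were called under at least 1 alternative. The number of genes higher on PLX3397, 2, became 1 with library totals alone, 1 with only the 2 groups compared, 1 with the replicate block, 8 with length and GC offsets and 6 with those offsets and the replicate block; leaving out single libraries gave 1 to 2. The number lower after return than on PLX3397, 4, became 12 with the offsets and 11 with the offsets and the block. The number higher after return than in control, 10, became 6 to 11 when single libraries were left out. In the other lysosomal lists the offsets gave 7 lower on PLX3397, and 33 lower and 7 higher after return than on PLX3397. With the offsets the log2 fold change of Npc1 after return turned to -0.0269 (-0.0266 with the block) and that of Lamp1 on PLX3397 to 0.0805; why was not tested. The median percent of control over the genes was 97.9 to 100.9 on PLX3397 and 101.9 to 103.0 after return when single libraries were left out. Mice with the same number correlated at -0.131 to 0.103 and were taken as unpaired; over 5 same-numbered mice a sign-flip test of a ratio cannot go below 0.0625, so the ratios have no call under the block. Depth limits mainly Pld4, Slc11a1 and Slc15a3 on PLX3397, with 8, 10 and 9 reads, and Acp5.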
